A study of Homo sapiens with 16 samples.

Results

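YBX1 knockout was compared with control in total RNA of leukemia cells, and the comparison rests on 8 of the 16 libraries of the series. MOLM13, an established line of human acute myeloid leukemia (AML), carries a KMT2A gene fusion and an activated FLT3 receptor. The sgYBX1 group held 4 libraries of MOLM13 cells with a CRISPR guide against YBX1 (sgRNA1), and the sgLUC group held 4 libraries with a non-targeting guide. Cells of both groups stably expressed Cas9, carried the same guide vector with puromycin resistance and RFP, grew in puromycin and were collected on day 14 after transduction. Knockout rests on 1 guide in a pool of edited cells, so clones with different edits, and cells without one, can be mixed in each library. Total RNA here means poly(A)-selected RNA of total lysates, and the other 8 libraries of the series, from polysomal RNA, are used below only to set the 2 fractions side by side. For the polysomal fractions cells were exposed to cycloheximide, which stalls ribosomes and can alter short-lived mRNAs such as MYC, before lysis, and whether the total RNA came from the same lysates is not stated.

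YBX1 is a cold-shock domain protein that binds mRNA and DNA. In the cytoplasm it coats mRNAs and affects their translation and stability, and in the nucleus it was first described as a factor bound to the inverted CCAAT box of promoters. AML cells of the myelomonocytic kind keep part of the normal myeloid program, including granule proteins and surface receptors, beside the HOXA and MEIS1 program driven by the KMT2A fusion. The comparison asked which transcripts differ in abundance once YBX1 is edited.

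Counts summed to 47739767 to 60704751 per sgYBX1 library, against 38326270 to 66164414 per sgLUC library. Levels are in CPM, counts scaled to a common library total after TMM factors, which correct for differences in library composition. Changes are log2 fold changes (log2FC) of sgYBX1 against sgLUC with their standard error (SE), and a gene was called when its edgeR p-value, adjusted over the 12214 genes tested, was under 0.05. The first principal component held 32.9% of the variance and separated the groups. The second held 17.2% and set sgLUC replicate 2, the library with the lowest total, apart from the other libraries. The 12 markers of MOLM13 identity that were checked were all present, with HOXA9 between 25.7 and 28.4 CPM in sgYBX1 libraries and between 19.9 and 25.9 CPM in sgLUC libraries, FLT3 between 383 and 423 CPM against 372 to 419 CPM, and SPI1 between 260 and 278 CPM against 237 to 295 CPM.

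YBX1 itself (Entrez gene 4904; chromosome 1, 42682418 to 42703805, GRCh38) stood at 712, 723, 694 and 770 CPM in the sgYBX1 libraries, against 1231, 1241, 1190 and 1255 CPM in the sgLUC libraries. The groups did not overlap, and 59.0% of the control level remained (log2FC −0.76 ± 0.03, adjusted p = 2.1e-11, edgeR). An exact two-sided permutation test of CPM gave p = 0.0286, the smallest that 4 against 4 allows. An edited mRNA can persist, so this level is no measure of the protein. The study checked YBX1 protein by Western blot in 4 replicate cultures that went into polysomal fractionation. Its text reports a strong fall of the protein with 3 guides in AML cell lines. Of the other cold-shock domain genes tested, YBX2, a germ-cell paralog, was at 0.489, 0.471, 0.834 and 0.418 CPM with sgYBX1, against 1.19, 1.89, 1.40 and 1.88 CPM with sgLUC, and fell by 1.49 ± 0.24 on the log2 scale (adjusted p = 3.6e-04). The remaining 3 members of that list did not pass.

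Across the transcriptome many genes moved and few moved far. Of the 12214 genes, 931 were higher (7.62%) and 1117 were lower (9.15%) in sgYBX1 cells. Among those, 138 were higher (1.13%) and 146 lower (1.2%) by over 1.5-fold, and 49 and 55 by over 2-fold. In all, 284 genes (2.33%) passed the larger fold of 1.5. The median log2FC was 0.24 among genes called higher and −0.19 among genes called lower. Genes called higher took 6.26% ± 0.0756 of the counts in sgYBX1 libraries and 5.41% ± 0.132 in sgLUC libraries (SD, n = 4 each). Genes called lower took 20.99% ± 0.211 in sgYBX1 libraries and 23.3% ± 0.198 in sgLUC libraries. Genes called lower thus held a larger share of the counts than genes called higher, and most counts lay in genes that were not called. The libraries of the groups did not overlap for 1018 genes in the higher direction (8.33%) and 1282 in the lower direction (10.5%). Counts of called list members below are to be read beside the shares over all genes, 7.62% higher and 9.15% lower.

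These counts depend on the spread and the scaling that go into the fit. Without TMM factors 1450 genes were higher and 752 lower, so that 65.9% of the calls were higher in place of 45.5%, and the median over all genes moved to 0.04. With all 16 libraries in 1 fit, where the more variable polysomal libraries set the spread, 58 were higher and 78 lower. The count of genes called higher was 1425 without sgLUC replicate 2, 583 without sgLUC replicate 4, 605 without sgYBX1 replicate 1 and 586 without sgYBX1 replicate 3. Every gene called and named below kept its direction under all settings tried, but most calls ended in the 16-library fit, where no list kept more than 3 called members in either direction. Of 43 counts of 1 to 3 called members per list and direction, 30 moved by over 1.5 times without some library, so that no direction is read from them.

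**Figure D1:**
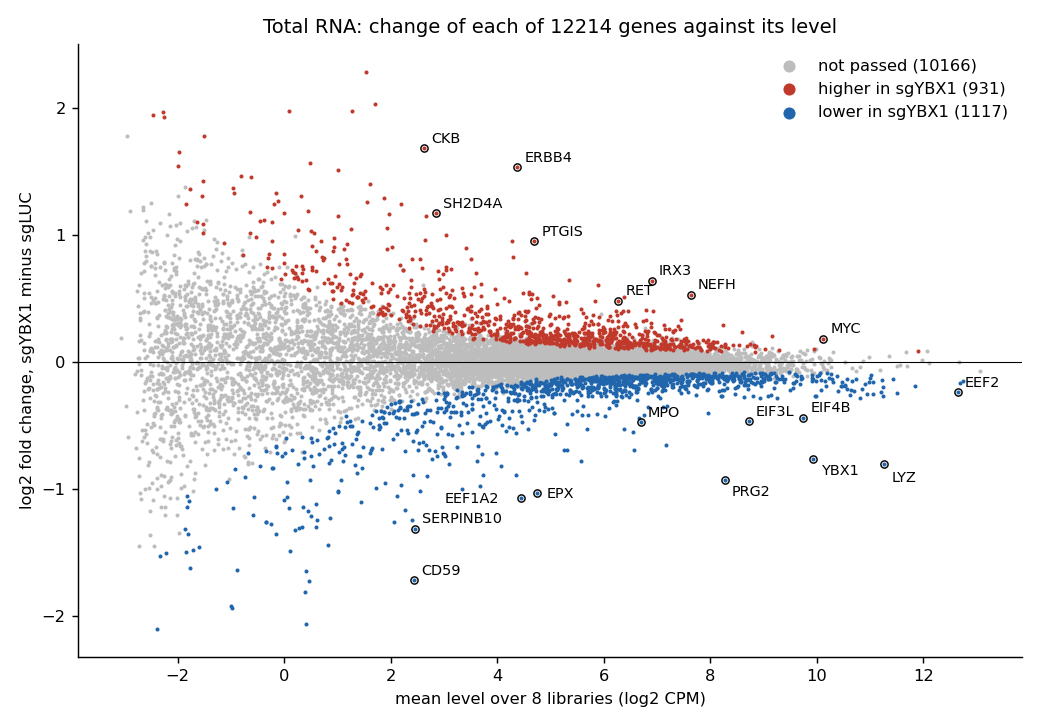
Each point is 1 of 12214 genes, with its mean level over the 8 total RNA libraries (log2 CPM) on the x axis and its log2 fold change, sgYBX1 minus sgLUC, on the y axis; red and blue points are the 931 higher and 1117 lower genes. Changes of abundant genes were small and mostly downward, while LYZ (−0.80), PRG2 (−0.93), YBX1 (−0.76), EIF4B (−0.44) and EIF3L (−0.47) stood apart at high level.

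Among protein-coding genes that averaged 5 CPM or more and did not overlap, the lowest fold changes were led by CD59, SERPINB10 and INPP5J. CD59 encodes a membrane protein that blocks the terminal complement complex. It was at 2.36, 2.43, 2.14 and 3.18 CPM in sgYBX1 libraries, against 8.75, 7.76, 8.72 and 7.70 CPM in sgLUC libraries (log2FC −1.72 ± 0.11, adjusted p = 8.6e-09, edgeR). SERPINB10, a serine protease inhibitor of hematopoietic cells, was at 2.59, 3.48, 2.94 and 3.58 CPM with sgYBX1, against 8.09, 7.47, 7.72 and 7.77 CPM with sgLUC (−1.31 ± 0.10). Lack of overlap was a condition for naming these genes, and the gap between their groups was wide. INPP5J, an inositol phosphatase gene, averaged 3.13 ± 0.475 CPM in sgYBX1 cells and 7.40 ± 0.532 CPM in sgLUC cells (SD, n = 4 each). CD48, a ligand of the lymphocyte and myeloid receptor CD244, averaged 4.46 ± 0.316 CPM in sgYBX1 cells and 8.29 ± 0.264 CPM in sgLUC cells. B3GNT7, a glycosyltransferase gene, averaged 3.86 ± 0.299 CPM in sgYBX1 cells and 7.80 ± 0.659 CPM in sgLUC cells. The log2FC of these 3 genes lay between −1.247 and −0.89, and all passed. EEF1A2 (−1.07), EPX (−1.03), TENT5C (−1.001), DST (−0.97), PRG2 (−0.93) and BEX1 (−0.89) were also among the 12 lowest.

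At the other end stood CKB, ERBB4, SH2D4A and WNT7B. CKB, the brain-type creatine kinase that buffers ATP, was at 8.88, 9.69, 8.84 and 9.89 CPM in sgYBX1 libraries, against 2.41, 3.40, 2.92 and 3.03 CPM in sgLUC libraries (1.68 ± 0.10, adjusted p = 2.9e-09, edgeR). It was 3.20-fold higher. ERBB4, a receptor tyrosine kinase for neuregulins, was at 31.8, 30.96, 31.2 and 29.8 CPM with sgYBX1, against 10.9, 10.1, 11.3 and 10.4 CPM with sgLUC (1.53 ± 0.05, adjusted p = 1.5e-12). Within each group its libraries were nearly level. WNT7B, a secreted WNT ligand, was at 8.82, 7.60, 8.27 and 10.2 CPM with sgYBX1, against 4.13, 3.95, 3.46 and 4.14 CPM with sgLUC (1.15 ± 0.10). CDC42EP1, an effector of the GTPase CDC42, averaged 8.23 ± 1.08 CPM in sgYBX1 cells and 4.26 ± 0.472 CPM in sgLUC cells. GGT1, a gamma-glutamyltransferase of glutathione breakdown, averaged 25.1 ± 0.745 CPM in sgYBX1 cells and 14.2 ± 1.14 CPM in sgLUC cells. PAK3, a kinase activated by CDC42 and RAC, averaged 14.6 ± 0.642 CPM against 8.27 ± 0.662 CPM, and PPP1R26 7.43 ± 0.815 CPM against 4.22 ± 0.336 CPM. The log2FC of these 4 genes lay between 0.81 and 0.96, and all passed. SH2D4A (1.17), CARD9 (1.00), PTGIS (0.95), RAB6B (0.95) and ZNF28 (0.89) completed the 12 highest. ZNF28 is a zinc-finger gene, and of the 360 ZNF genes tested 21 were higher (5.83%) and 30 lower (8.33%), near the shares over all genes.

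The next genes were chosen for their level past a minimum fold, and the genes above for the size of their change. A contrast between these sets therefore cannot show how change depends on level. IRX3, a homeobox transcription factor gene, was at 149, 142, 138 and 152 CPM in sgYBX1 libraries, against 88.2, 100.1, 90.4 and 95.0 CPM in sgLUC libraries (0.64 ± 0.04, adjusted p = 8.6e-09, edgeR). Among the 8 most abundant genes called higher past a minimum fold were also the chromatin gene BAHCC1 (0.33 ± 0.04), UNC13D, which primes secretory granules for release (0.40 ± 0.04), HES6, a transcription factor gene of the HES family (0.41 ± 0.05), and FNDC3A (0.40 ± 0.04). None of these had overlapping libraries. On the lower side the most abundant were LYZ, YBX1, EIF4B, EIF3L, PRG2, PLAC8 (−0.40 ± 0.03), CHI3L1, a secreted glycoprotein of neutrophils and macrophages (−0.65 ± 0.04), and METTL9 (−0.35 ± 0.03). PLAC8, which is expressed in myeloid progenitors, was at 214, 215, 212 and 212 CPM with sgYBX1, against 291, 275, 287 and 278 CPM with sgLUC.

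**Figure D2:**
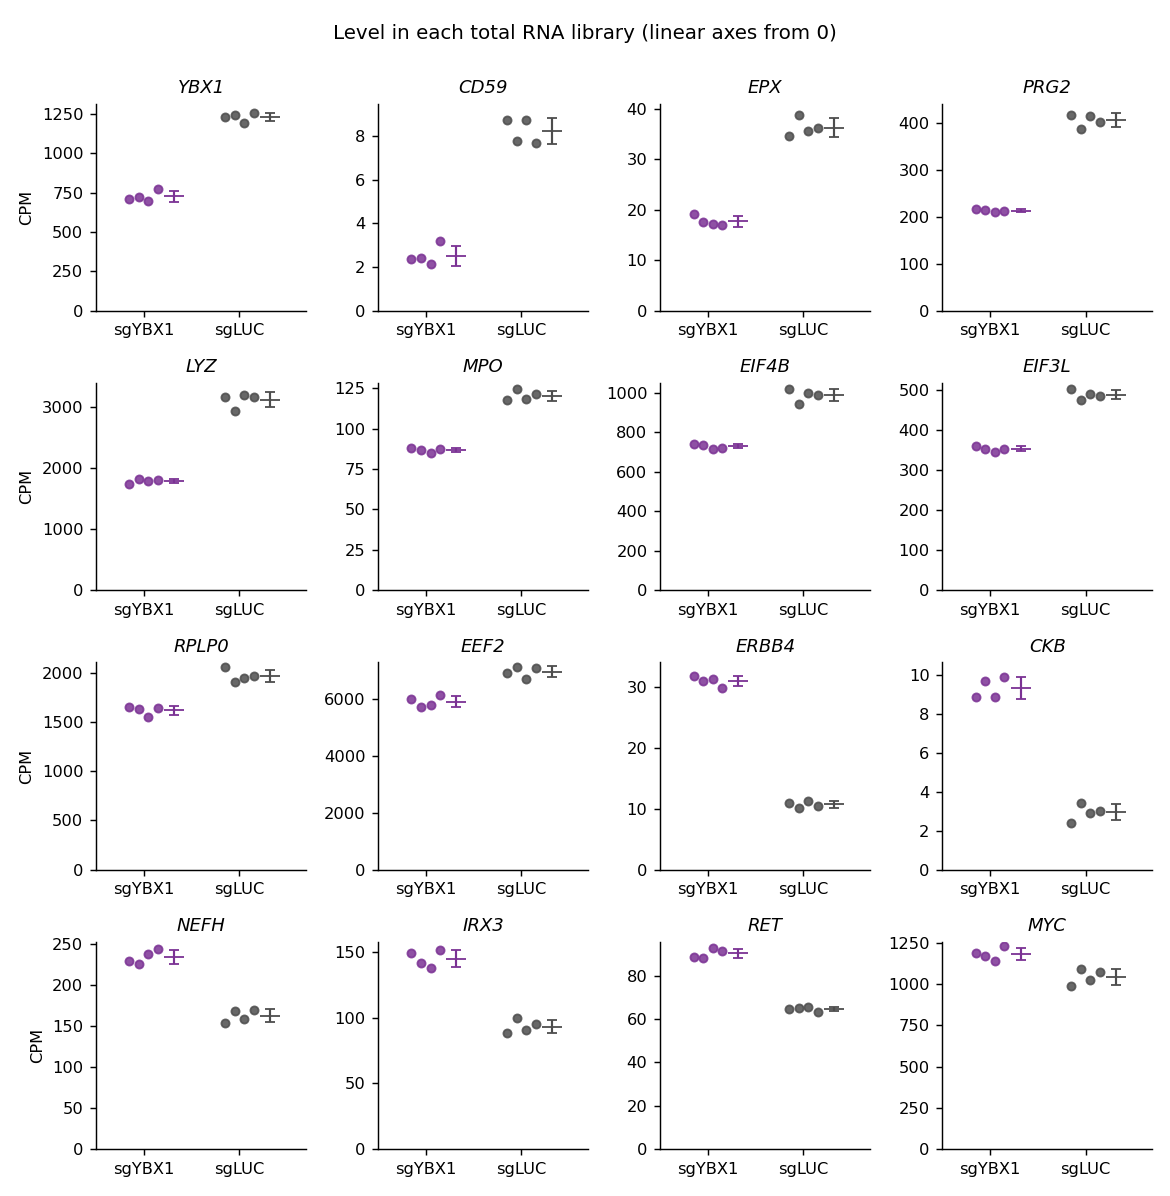
Level in CPM (linear y axes from 0) of 16 genes in each of the 4 sgYBX1 libraries (purple, left) and 4 sgLUC libraries (gray, right); bars give the mean and SD of each group. YBX1 lay between 694 and 770 CPM with sgYBX1 and between 1190 and 1255 CPM with sgLUC. The groups overlapped for none of the 16 genes, but for CD59, EPX, PRG2, ERBB4 and CKB that was a condition of their choice.

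Several abundant granule genes were lower. Of 12 tested genes of the eosinophil, basophil and mast cell lineages 5 were lower, 1 was higher and 6 did not pass, with a median log2FC of −0.61, where the median over all genes was 0.003. PRG2 encodes the eosinophil major basic protein. It was at 216, 215, 211 and 211 CPM in sgYBX1 libraries, against 417, 386, 415 and 403 CPM in sgLUC libraries (−0.93 ± 0.03, adjusted p = 1.4e-12, edgeR). EPX, the eosinophil peroxidase, was at 19.2, 17.6, 17.1 and 16.9 CPM with sgYBX1, against 34.5, 38.8, 35.5 and 36.1 CPM with sgLUC (−1.03 ± 0.05). The groups were far apart for both genes. The mast cell tryptase genes TPSB2 (−0.80 ± 0.08) and TPSAB1 (−1.02 ± 0.18) were lower, although these near-identical copies can share reads. HDC, which makes histamine, was at 0.437 ± 0.149 CPM in sgYBX1 cells and 0.911 ± 0.0694 CPM in sgLUC cells (−1.06 ± 0.27). The lower set was not the whole lineage program. The eosinophil ribonuclease genes stood at 334 ± 4.29 CPM with sgYBX1 and 309 ± 19.1 CPM with sgLUC for RNASE2 (0.11 ± 0.04, adjusted p = 0.048) and at 23.9 ± 0.907 CPM and 23.8 ± 1.52 CPM for RNASE3 (0.00 ± 0.05, adjusted p = 0.97). The call of RNASE2 was lost in 6 of the 8 fits that left out a library, namely without sgLUC replicates 2 or 4 or without any 1 sgYBX1 library, with adjusted p of 0.069 to 0.17. GATA2, a transcription factor gene of these lineages, had −0.05 ± 0.04 and did not pass.

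Of 9 neutrophil primary granule genes 2 were lower. LYZ (lysozyme) was at 1748, 1821, 1789 and 1802 CPM in sgYBX1 libraries, against 3179, 2938, 3206 and 3177 CPM in sgLUC libraries (−0.80 ± 0.03, adjusted p = 3.3e-12, edgeR). MPO (myeloperoxidase) was at 87.8, 86.8, 84.7 and 87.2 CPM with sgYBX1, against 117, 124, 118 and 121 CPM with sgLUC (−0.47 ± 0.03, adjusted p = 1.7e-08). CTSG (cathepsin G), which is stored in the same granules, was at 340 ± 16.4 CPM with sgYBX1 and 332 ± 16.7 CPM with sgLUC (0.04 ± 0.04, adjusted p = 0.57). ELANE (neutrophil elastase) was called higher at a low level (0.49 ± 0.16, adjusted p = 0.044), a call that was lost without sgLUC replicates 1, 3 or 4 or sgYBX1 replicates 1, 3 or 4 (0.097 to 0.11). The list as a whole had a median of −0.02.

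Among 22 mature monocyte and neutrophil genes 7 were lower and 2 higher (median −0.07). That was 31.8% and 9.09%, against 9.15% lower and 7.62% higher over all genes tested. CYBB, the catalytic subunit of the phagocyte NADPH oxidase, was at 9.11, 9.15, 8.96 and 8.99 CPM in sgYBX1 libraries, against 16.1, 15.03, 16.3 and 14.6 CPM in sgLUC libraries (−0.78 ± 0.06, adjusted p = 9.7e-08, edgeR). TLR4, the receptor for bacterial lipopolysaccharide, was at 21.8 ± 1.90 CPM with sgYBX1 and 29.9 ± 2.54 CPM with sgLUC (−0.46 ± 0.07). The calprotectin subunits S100A9 (0.667 ± 0.214 CPM with sgYBX1 and 1.65 ± 0.155 CPM with sgLUC, −1.32 ± 0.22) and S100A8 (0.647 ± 0.109 CPM and 1.47 ± 0.369 CPM, −1.15 ± 0.22) were lower at low levels. ITGAX, the integrin chain CD11c, went the other way, with 14.4, 14.1, 15.5 and 12.3 CPM with sgYBX1, against 8.80, 11.6, 9.48 and 8.10 CPM with sgLUC (0.59 ± 0.09, adjusted p = 2.9e-04). CSF3R, the G-CSF receptor gene, had 0.12 ± 0.04 (adjusted p = 0.034). Its call was lost without sgLUC replicates 1, 3 or 4 or sgYBX1 replicates 1 or 3, with adjusted p of 0.064 to 0.13. Of 19 myeloid transcription factor genes 2 were higher and 1 lower. The lower one was IRF8, which directs monocyte and dendritic cell fate, at 464 ± 14.8 CPM with sgYBX1 and 528 ± 24.1 CPM with sgLUC (−0.19 ± 0.03, adjusted p = 0.001). SPI1 (0.02 ± 0.05) and CEBPA (0.07 ± 0.05), which are master regulators of myeloid cells, did not pass.

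Leukemia surface antigens split, with 6 of 22 lower and 4 higher (median −0.06). Those shares were 27.3% and 18.2%, against 9.15% lower and 7.62% higher over all genes tested. CD36, a scavenger receptor for fatty acids, was at 6.06, 5.97, 6.81 and 5.52 CPM in sgYBX1 libraries, against 9.75, 8.001, 11.9 and 10.3 CPM in sgLUC libraries (−0.72 ± 0.10, adjusted p = 1.0e-04, edgeR). CLEC12A, an inhibitory lectin receptor of myeloid cells, was at 1.83 ± 0.208 CPM with sgYBX1 and 3.32 ± 0.582 CPM with sgLUC (−0.87 ± 0.15). Together with CD59 and CD48, these were the 4 lower members with the smallest p. CD33, a sialic acid-binding receptor and antibody target, was at 114 ± 1.98 CPM with sgYBX1 and 105 ± 2.22 CPM with sgLUC (0.11 ± 0.03, adjusted p = 0.025). Its call ended without sgLUC replicates 3 or 4 or sgYBX1 replicates 1, 2 or 3, and the count of higher members was 2 in 5 of the fits that left out a library, namely those without sgYBX1 replicates 1, 2 or 3 or sgLUC replicates 3 or 4. FLT3, the receptor that is activated by mutation in this line, had 0.04 ± 0.04 (adjusted p = 0.49).

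Most cytosolic ribosomal protein genes were lower, each by a small amount. Of 47 tested large-subunit ribosomal protein genes 33 were lower and 1 higher (median −0.14), and of 30 tested small-subunit genes 26 were lower and none higher (median −0.16). A small change passes more readily in an abundant gene, and the share over all genes was not matched for level. Over all genes 9.15% were lower, against 70.2% and 86.7% of these lists. Their summed levels also lay apart, at 43554 to 46741 CPM in sgYBX1 libraries against 49207 to 51698 CPM in sgLUC libraries for the large subunit. RPLP0, a stalk protein of the large subunit, was at 1656, 1637, 1550 and 1644 CPM with sgYBX1, against 2059, 1908, 1952 and 1973 CPM with sgLUC (−0.28 ± 0.03, adjusted p = 3.6e-06, edgeR). RPS14, whose loss marks the 5q deletion syndrome, was at 919, 929, 884 and 946 CPM with sgYBX1, against 1119, 1101, 1081 and 1131 CPM with sgLUC (−0.27 ± 0.03). These were small changes, and yet the libraries of the groups did not overlap. RPL3 (−0.24 ± 0.03), RPL13A (−0.25 ± 0.03), RPS3 (−0.27 ± 0.03) and RPS6 (−0.25 ± 0.03) were alike in size. The exception was RPL36A, at 8.48 ± 1.39 CPM with sgYBX1 and 6.12 ± 1.09 CPM with sgLUC (0.49 ± 0.12, adjusted p = 0.0095), with overlapping libraries. Ribosomal protein genes have many processed pseudogenes, and RPL36A shares exons with a readthrough transcript, so that counts of single members are uncertain. Without TMM factors 30 and 21 members were lower, in place of 33 and 26, and in the fit over all 16 libraries 1 and 0 were. Proteins of the mitochondrial ribosome did not follow, with 3 of 76 higher and 2 lower (median 0.01).

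Initiation factors did not move as a set, and a few subunits carried the change. Of 40 tested genes 8 were lower and 2 higher, with a median of 0.02. Those shares were 20% and 5%, against 9.15% lower and 7.62% higher over all genes tested. EIF4B, which stimulates the helicase that unwinds mRNA 5′ ends, was at 739, 735, 718 and 722 CPM in sgYBX1 libraries, against 1019, 944, 999 and 989 CPM in sgLUC libraries (−0.44 ± 0.03, adjusted p = 8.1e-09, edgeR). EIF3L, a subunit of the complex that brings the small ribosomal subunit to mRNA, was at 361, 354, 345 and 353 CPM with sgYBX1, against 502, 474, 491 and 487 CPM with sgLUC (−0.47 ± 0.03, adjusted p = 3.4e-09). Of the control level 73.7% remained for EIF4B and 72.3% for EIF3L. Other subunits of the same complex were lower by less, namely EIF3D (−0.18 ± 0.03) and EIF3F (−0.24 ± 0.03), while most others did not pass. The cap-binding protein EIF4E (0.07 ± 0.04) and its scaffold EIF4G1 (0.03 ± 0.03) did not pass. EIF4A2, a helicase paralog, was at 429 ± 14.9 CPM with sgYBX1 and 392.2 ± 13.1 CPM with sgLUC (0.13 ± 0.03, adjusted p = 0.011), with overlapping libraries, and lost its call without sgLUC replicate 4 (0.052). EIF4H, which aids the same helicase, was at 474 ± 7.27 CPM and 448 ± 3.41 CPM (0.08 ± 0.03, adjusted p = 0.04), and lost its call without any library except sgLUC replicate 2 (0.064 to 0.10). The lower count was 5 in place of 8 without sgLUC replicate 4, sgYBX1 replicate 1 or sgYBX1 replicate 3, and without TMM factors 5 were lower and 8 higher. The study text names initiation factors for this experiment, so their count is not independent evidence of direction.

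Of 13 elongation and termination factors 5 were lower (38.5%, against 9.15% of all genes) and none higher (median −0.07). EEF2, which moves the ribosome along mRNA, was at 5983, 5707, 5764 and 6125 CPM in sgYBX1 libraries, against 6918, 7098, 6710 and 7081 CPM in sgLUC libraries (−0.24 ± 0.03, adjusted p = 1.5e-05, edgeR). EEF1A2, the elongation factor isoform of muscle and neurons, was at 13.5, 14.0, 13.6 and 15.2 CPM with sgYBX1, against 29.3, 29.7, 26.8 and 32.1 CPM with sgLUC. That was the largest change of the list (−1.07 ± 0.06), far from that of EEF1G (−0.27 ± 0.03). Of 16 other mRNAs known to start with a pyrimidine tract 8 were lower and none higher (median −0.09), and 13 were lower without sgLUC replicate 2. They included PABPC4 (−0.26 ± 0.03) and PABPC1 (−0.15 ± 0.02), which bind poly(A) tails, RACK1, a scaffold on the small ribosomal subunit (−0.15 ± 0.03), and NOP53, a factor of ribosome assembly (−0.28 ± 0.04).

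**Figure D3:**
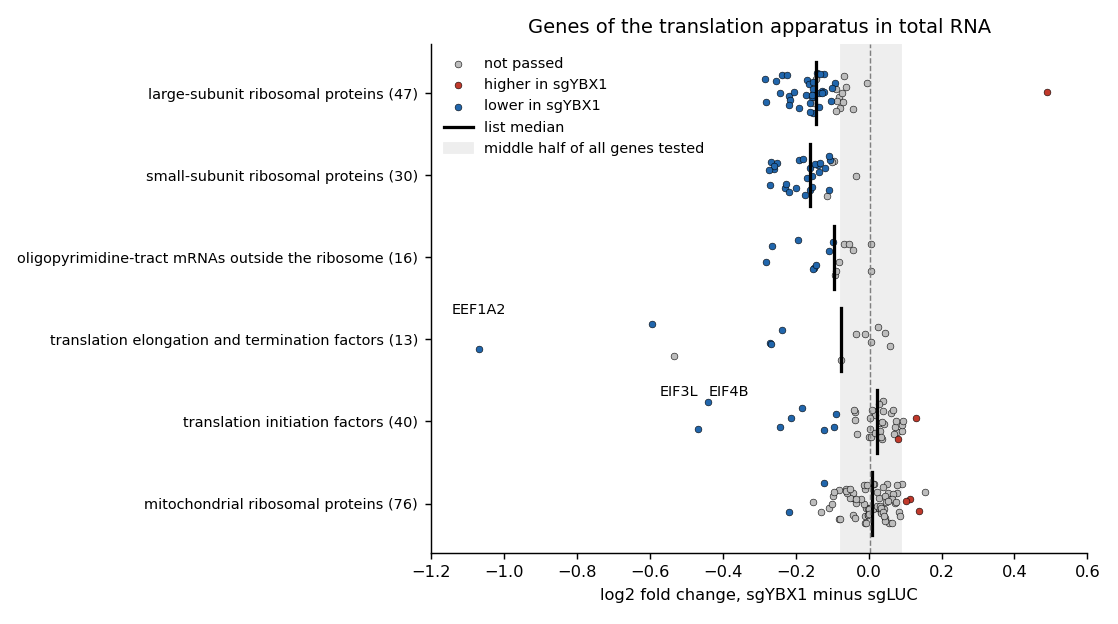
Each point is a tested gene of the translation apparatus, placed by its log2 fold change in total RNA (x axis, sgYBX1 minus sgLUC) within its list (rows, with the number of tested genes); red is higher, blue lower, gray not passed, black bars are list medians and the gray band holds the middle 50% of all genes tested. Cytosolic ribosomal proteins centred on −0.14 and −0.16, initiation and mitochondrial ribosomal genes on 0.02 and 0.01.

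Translation mRNAs of this kind often begin with a cytosine followed by an unbroken run of pyrimidines, the 5′ terminal oligopyrimidine (TOP) tract through which growth signals set their translation. The first 20 bases at the RefSeq start of some of the genes above are shown to set genes with the tract beside genes without it, and they are a selection. They are given 5′ to 3′ on the coding strand of GRCh38.p14, and capitals mark C followed by at least 4 pyrimidines at the first base.
RPS3 (chr11:75399518-75399537, plus strand): CCTTTCCTTTCagcggagcg
RPS14 (chr5:150449720-150449739, minus strand): CTCTCTTTCCggtgtggagt
RPLP0 (chr12:120201092-120201111, minus strand): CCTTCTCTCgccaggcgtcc
RPL36A (chrX:101391011-101391030, plus strand): CTTTCTTTCCgcgccgatag
EEF2 (chr19:3985444-3985463, minus strand): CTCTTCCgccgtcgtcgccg
EIF3D (chr22:36529147-36529166, minus strand): CTCTTTTCCTggtttctcaa
EIF3F (chr11:7987337-7987356, plus strand): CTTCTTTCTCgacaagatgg
EIF4B (chr12:53006456-53006475, plus strand): CTTTTgcgttctctttccct
RACK1 (chr5:181243887-181243906, minus strand): CTCTCTTTCactgcaaggcg
NOP53 (chr19:47745546-47745565, plus strand): CTTCCTTTgacaagatggcg
CD48 (chr1:160711803-160711822, minus strand): CTTTTTCTagccaggctctc
YBX1 (chr1:42682418-42682437, plus strand): attctcgctagttcgatcgg
EEF1G (chr11:62573872-62573891, minus strand): actttgcggcagcgccgaga
CD59 (chr11:33736460-33736479, minus strand): ggggccggggggcggagcct
ERBB4 (chr2:212538783-212538802, minus strand): acagtccggcccagagcgcc

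The tract was found at the annotated start of 10 of these translation genes, including RPL36A, which was higher. EEF1G had none at this start and was lower, while EIF4A2, PPP1R26 and FNDC3A, which were higher, had one, so the tract and the direction did not coincide gene by gene. Of the 12214 genes tested 10000 had a RefSeq promoter entry. Among them the tract was at the start of 11.9% of genes called lower, 4.99% of genes called higher and 5.49% of all, and at 67.2% of 61 ribosomal protein genes. It was at 4.04% of all 27305 RefSeq promoters. Read the other way, 19.5% of 549 genes with the tract were lower and 6.74% higher, against 8.41% and 7.45% of 9451 genes without it. With the cytosolic ribosomal proteins left out, 15.2% of 508 genes with the tract were lower and 7.09% higher. These shares are descriptions without a test, and a match in letters says nothing of whether the RNA of these cells begins there. The letters CCAAT or their reverse complement ATTGG, the motif for which the protein was named, were searched in the 250 bases before the start on both strands. They were found at 36.4% of genes called lower, 28.1% of genes called higher, 35.2% of all tested and 33.0% of all RefSeq promoters.

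Coding length moved with direction as well. The tested genes with a coding length (99.5%) were put in 5 groups by length. Of the shortest group, up to 774 bases, 4.71% were higher and 12.8% lower, and of the longest group, over 2541 bases, 9.76% were higher and 8.19% lower. The median coding length was 1680 bases for genes called higher and 1257 bases for genes called lower. Across genes the Spearman correlation of length with log2FC was 0.08 over 12155 genes that share the same 8 libraries. The correlation of mean CPM with log2FC was −0.13, and length was not separated from level. Ribosomal protein genes are short and carry the tract, and their part in the length pattern was not tested. Genes near the edited locus did not stand apart. The 111 genes within 5 Mb of YBX1 had a median log2FC of 0.01 with 8 higher and 11 lower, the 383 genes on the telomeric side of YBX1 had 0.01 with 30 and 36, and the other 814 genes of chromosome 1 had −0.002 with 57 and 94.

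**Figure D4:**
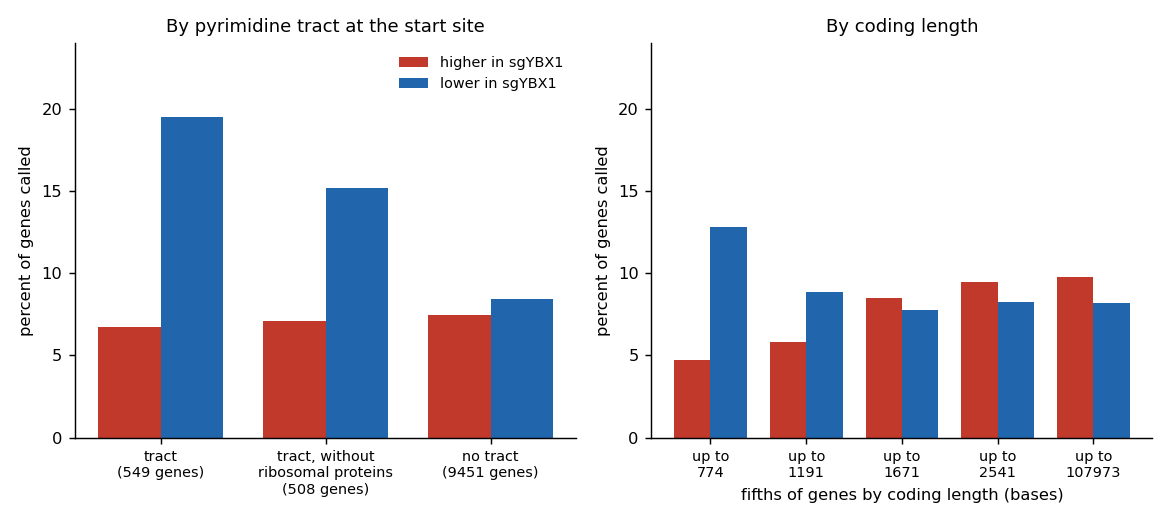
Percent of genes called higher (red) and lower (blue) in sgYBX1 cells. The left side is by pyrimidine tract at the RefSeq start (549 genes with it, 9451 without it). Of the 549 genes, 508 were left without the cytosolic ribosomal protein genes. The right side has 5 groups of rising coding length, labelled by the longest length of each group in bases. Lower calls took 19.5% of genes with the tract and 8.41% of genes without it, and 12.8% of the shortest and 8.19% of the longest genes.

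Some cell cycle genes were lower, a larger share than over all genes, and most did not pass. Of 50 DNA replication and S-phase genes 18 were lower, none higher and 32 did not pass (median −0.08). Of 57 genes of G2 and mitosis 17 were lower, none higher and 40 did not pass (median −0.09). Lower calls took 36.0% and 29.8% of these lists, against 9.15% of all genes tested. MKI67, the gene of the proliferation antigen Ki-67, was at 489, 475, 513 and 491 CPM in sgYBX1 libraries, against 604, 571, 586 and 608 CPM in sgLUC libraries (−0.27 ± 0.03, adjusted p = 1.0e-05, edgeR). MCM3, a subunit of the replicative helicase, was at 479, 482, 469 and 473 CPM with sgYBX1, against 537, 527, 526 and 529 CPM with sgLUC (−0.15 ± 0.03). The groups did not overlap for these genes. The replication initiation factor MCM10 (−0.21 ± 0.03), the thymidine kinase TK1 (−0.23 ± 0.04), the kinetochore gene NDC80 (−0.23 ± 0.05) and the kinesin KIF18A (−0.25 ± 0.05) were lower too. The size of these lists depended on single libraries and on scaling. Without sgLUC replicate 2 the counts of lower genes were 28 and 29. Without sgYBX1 replicate 3 they were 11 and 8. The G2 and mitosis count was 8 without sgYBX1 replicate 1, 11 without sgYBX1 replicate 2, 10 without sgLUC replicate 3 and 9 without sgLUC replicate 4. Without TMM factors 12 and 5 were lower, and 2 of the G2 and mitosis genes were higher.

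The HOXA and MEIS1 program of the KMT2A fusion was not lower. Of 25 tested members 10 were higher (40.0%, against 7.62% of all genes), 1 was lower and 14 did not pass (median 0.09). HOXA5 was at 15.4, 16.9, 16.2 and 15.5 CPM in sgYBX1 libraries, against 11.7, 13.1, 13.02 and 11.5 CPM in sgLUC libraries (0.38 ± 0.06, adjusted p = 4.5e-04, edgeR). The TALE homeobox partner PBX3 was at 103, 106, 102 and 102 CPM with sgYBX1, against 97.3, 89.2, 95.0 and 91.5 CPM with sgLUC (0.15 ± 0.04). SENP6, a SUMO protease gene near the top of the list by p, had 0.16 ± 0.04. HOXA9 (0.23 ± 0.07, adjusted p = 0.028) and MEIS1 (0.14 ± 0.05, adjusted p = 0.046), the central factors of the program, had overlapping libraries. HOXA9 lost its call without sgLUC replicates 1 or 3 or sgYBX1 replicates 3 or 4, and MEIS1 without any library except sgLUC replicate 2 or sgYBX1 replicate 4. The count of higher members was 5, 6 and 5 without sgLUC replicates 1, 3 and 4 and 6, 4 and 3 without sgYBX1 replicates 1, 2 and 3.

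MYC, a driver of growth whose mRNA turns over quickly, was at 1186, 1173, 1139 and 1232 CPM in sgYBX1 libraries, against 986, 1089, 1022 and 1076 CPM in sgLUC libraries. It was 1.13-fold higher without overlap (0.18 ± 0.03, adjusted p = 0.0012, edgeR). Of 46 genes of the MYC network and its responses 8 were higher and 3 lower (median 0.02), with 13 higher without TMM factors, and ODC1, the polyamine enzyme long used as a MYC target, was lower (−0.22 ± 0.03). The higher count was 4 without sgLUC replicates 1, 3 or 4 or sgYBX1 replicates 1 or 4, and 5 without sgYBX1 replicate 2. BCL2, the anti-apoptotic gene on which many AML cells rely, was at 198, 193, 195 and 188 CPM with sgYBX1, against 224, 196, 216 and 208 CPM with sgLUC (−0.13 ± 0.04, adjusted p = 0.029). Its libraries overlapped, and the call was lost without TMM factors (0.097) and without sgLUC replicates 1, 3 or 4 or sgYBX1 replicates 2, 3 or 4 (0.056 to 0.088). MCL1, its relative, was at 262 ± 6.71 CPM with sgYBX1 and 259 ± 4.25 CPM with sgLUC and did not pass (0.02 ± 0.03, adjusted p = 0.74). BCL2A1, another anti-apoptotic member, was higher at a low level, with 2.69, 3.25, 3.12 and 2.72 CPM with sgYBX1, against 1.48, 1.76, 1.49 and 1.52 CPM with sgLUC (0.92 ± 0.14, adjusted p = 1.8e-04). IGF2BP2, which binds methylated mRNA, was at 158, 160, 160 and 159 CPM with sgYBX1, against 151, 153, 151 and 153 CPM with sgLUC. It did not pass (0.07 ± 0.03, adjusted p = 0.10), although the libraries did not overlap, and it passed with DESeq2 (0.046) and without TMM factors (0.017).

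The JAK-STAT5 list, which holds pathway components beside responsive genes, had the highest share of higher calls among lists with at least 10 tested genes. Of its 16 genes 8 were higher and none was lower (median 0.16), where 7.62% of all genes were higher. SOCS2, a feedback inhibitor of cytokine receptors, was at 199, 199, 196 and 188 CPM in sgYBX1 libraries, against 182, 171, 178 and 173 CPM in sgLUC libraries (0.15 ± 0.03, adjusted p = 0.0029, edgeR). SOCS1 (0.29 ± 0.07), the interleukin 4 receptor IL4R (0.19 ± 0.04) and ID1, an inhibitor of differentiation factors (0.54 ± 0.10), were higher as well, SOCS1 with overlapping libraries. Among the same 16 genes, PIM1, a kinase gene often read as a target of this pathway, had 0.05 ± 0.04 and did not pass. The pathway components STAT5A (0.03 ± 0.04), STAT5B (−0.01 ± 0.03) and JAK2 (−0.04 ± 0.05), also in the list, did not pass. The count was 5 without sgLUC replicate 4 or sgYBX1 replicate 3. Receptor tyrosine kinases went both ways, with 5 of 23 higher and 5 lower (21.7% each, against 7.62% and 9.15% of all genes). RET, the receptor for GDNF ligands, was at 88.6, 88.1, 92.7 and 91.3 CPM with sgYBX1, against 64.6, 64.8, 65.6 and 63.3 CPM with sgLUC (0.48 ± 0.03, adjusted p = 2.3e-08). TYRO3 of the TAM receptor family was at 5.87 ± 0.458 CPM with sgYBX1 and 8.67 ± 0.581 CPM with sgLUC (−0.57 ± 0.08). Without sgYBX1 replicates 1 or 3 or sgLUC replicate 1 the higher count was 3, and without sgYBX1 replicates 1 or 2 or sgLUC replicates 3 or 4 the lower count was 3.

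Genes of the cytoskeleton and of adhesion were lower in 17 of 38 cases and higher in 2 (median −0.11), with 13 to 20 lower when a library was left out. Lower calls took 44.7% of them, against 9.15% of all genes tested. FLNA, the actin crosslinker filamin A, was at 1412, 1336, 1438 and 1429 CPM in sgYBX1 libraries, against 1579, 1666, 1587 and 1687 CPM in sgLUC libraries (−0.22 ± 0.03, adjusted p = 1.0e-04, edgeR). The phospholipid-binding annexins ANXA1 (−0.52 ± 0.06) and ANXA5 (−0.36 ± 0.04) and the cytolinker DST were lower by more, whereas actin itself, ACTB, stood at 6555 ± 132 CPM with sgYBX1 and 6565 ± 139 CPM with sgLUC. Of 10 antigen presentation genes 3 were lower and none higher, among them CD74, the invariant chain of MHC class II (−0.22 ± 0.04). Of 73 oxidative phosphorylation subunits 9 were lower (12.3%, against 9.15% of all genes) and none higher (median −0.04), for example COX7B (−0.27 ± 0.04). That count was 17 without sgLUC replicate 2, 14 without sgYBX1 replicate 4, 4 without sgLUC replicate 4 or sgYBX1 replicate 1 and 3 without sgYBX1 replicate 3, and 4 without TMM factors. Of 21 glycolytic enzymes 5 were lower and 2 higher, with PKM (pyruvate kinase) at −0.18 ± 0.03 and GAPDH at −0.03 ± 0.03. The lower glycolytic count was 1 without sgLUC replicate 4 and 2 without sgYBX1 replicate 1 or without TMM factors.

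The stress programs did not share a direction with each other. Of 31 p53 targets 5 were higher and 5 lower (16.1% each, against 7.62% and 9.15% of all genes, median 0.11). The death receptor TNFRSF10B (0.19 ± 0.03) and the metabolic regulator TIGAR (0.28 ± 0.05) were higher and the ribonucleotide reductase subunit RRM2B was lower (−0.19 ± 0.03), while CDKN1A, the p21 gene (0.11 ± 0.04, adjusted p = 0.073), and BAX (0.12 ± 0.05, adjusted p = 0.14) did not pass. CDKN1A passed without TMM factors (0.020), without the low-count filter (0.032) and without sgLUC replicate 2 (0.011), and BAX without the filter (0.048) and without sgLUC replicate 2 (0.0040). Without TMM factors 8 of the list were higher and 2 lower. The higher count was 10 without sgLUC replicate 2, 2 without sgYBX1 replicate 2 and 3 without sgLUC replicates 1 or 4 or sgYBX1 replicates 1 or 3. The lower count was 2 or 3 without any 1 library except sgLUC replicate 2. Of 28 genes of the integrated stress response 3 were higher and 1 lower, among them DDIT4, an inhibitor of mTORC1 signaling (0.37 ± 0.06). Of 20 heat shock genes 2 were higher, HSPB1 (0.29 ± 0.05) and HSPA4L (0.26 ± 0.04), and 1 was lower. Of 16 hypoxia genes 3 were higher, led by VEGFA (0.33 ± 0.05), and 2 lower. Of 29 antioxidant genes 8 were lower (27.6%, against 9.15% of all genes) and none was higher. The ferritin light chain FTL was among the lower ones (−0.20 ± 0.04, with overlapping libraries). The lower antioxidant count was 2 without sgYBX1 replicate 1, 3 without sgLUC replicate 4, 4 without sgYBX1 replicates 2 or 3 and 5 without sgLUC replicates 1 or 3. Without TMM factors 5 antioxidant genes were lower and 3 higher, 5 heat shock genes were higher, and 7 genes of the integrated stress response were higher.

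Some genes named for other cell types moved with the group. Of 7 tested neuronal markers 3 were higher. Their summed level was 237 to 257 CPM in sgYBX1 libraries and 163 to 177 CPM in sgLUC libraries, and nearly all of it was NEFH, the heavy neurofilament subunit. NEFH was at 229, 226, 238 and 244 CPM with sgYBX1, against 154, 168, 159 and 170 CPM with sgLUC (0.53 ± 0.04, adjusted p = 1.8e-08, edgeR). SV2A, a synaptic vesicle protein gene, was at 5.33 ± 0.723 CPM with sgYBX1 and 2.83 ± 0.537 CPM with sgLUC (0.91 ± 0.14). Of the 16 markers of this list 13 were under 1 CPM in all 8 libraries and SYT1 and GAP43 were at 0 in all, so that the defining genes of neurons were at or near 0. Of 4 tested epithelial markers 2 were higher, among them KRT18, a keratin of simple epithelia, at 9.68 ± 1.046 CPM with sgYBX1 and 6.73 ± 0.732 CPM with sgLUC (0.54 ± 0.09). The epithelial sum was 20.1 to 24.95 CPM with sgYBX1 and 16.1 to 20.4 CPM with sgLUC, with 9 of 12 markers under 1 CPM. Of 8 lymphoid markers 2 were lower, among them IGLL1, a surrogate light chain of early B cells, at 2.96 ± 0.400 CPM with sgYBX1 and 6.66 ± 0.207 CPM with sgLUC (−1.16 ± 0.10). Their sum was 37.1 to 44.3 CPM with sgYBX1 and 46.8 to 50.9 CPM with sgLUC. The part of other cells in these changes was not tested. In lysates of whole cultures, fewer cells with a transcript and less of it per cell cannot be told apart.

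**Figure D5:**
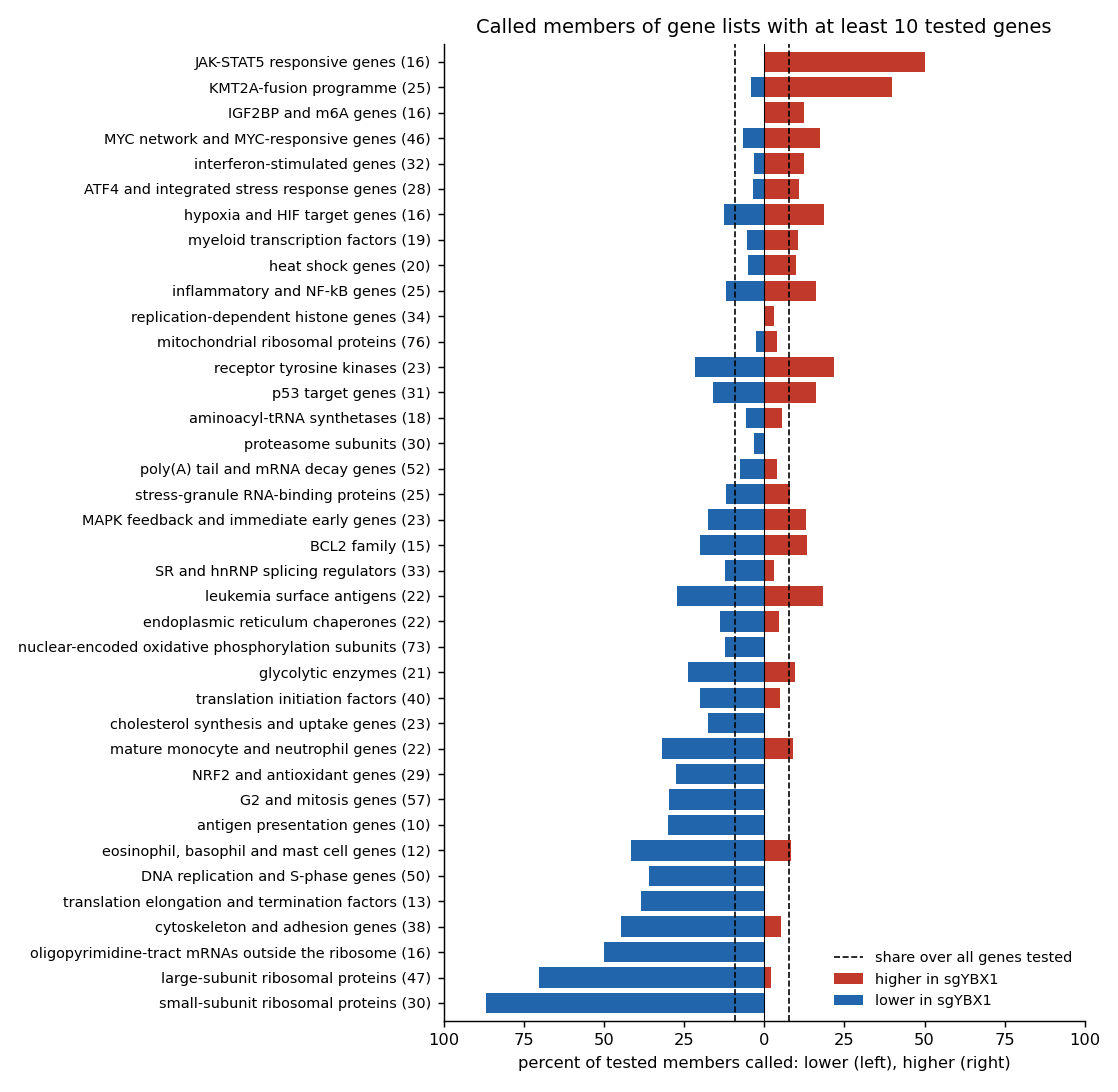
Percent of the tested members of each list (number in brackets, lists with at least 10 tested genes) called lower (blue, left) and higher (red, right) in sgYBX1 cells, with dashed lines at the share over all 12214 genes, 9.15% lower and 7.62% higher. Lower calls took 86.7% of small-subunit and 70.2% of large-subunit ribosomal protein genes. Higher calls took 8 of the 16 genes listed as JAK-STAT5 responsive and 40.0% of the KMT2A-fusion program.

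Set beside polysomal RNA of the same design, the total RNA change differed for 2095 of 12517 genes (16.7%), by edgeR's test of the difference between fractions over all 16 libraries. That test took the libraries as independent, although a total and a polysomal library may come from the same culture. The difference was positive for 863 (6.89%) and negative for 1232 (9.84%). YBX1 had a log2FC of −0.76 in total and −0.44 in polysomal RNA. MYC had 0.18 in total and −0.39 in polysomal RNA.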

How the data were processed

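Gene counts were used as the authors deposited them, whole numbers without normalization, from poly(A)-selected RNA. Tools in the notes of the submitters include STAR 2.7.8a for alignment, featureCounts 2.0.1, Trimmomatic 0.36.5 and DESeq2 1.30.0, with build GRCh38 (hg38). The annotation and the strand setting are not given in the sources used here. Since the use of strand is not stated, a gene and its antisense partner, or overlapping genes, cannot be told apart. Of counts from 1 to 39, 63.5% were even, as when both mates of a pair are counted. That doubling makes small counts look more precise than the fragments allow, and a fit on halved counts was an alternative. The symbol column of the table matched its Entrez identifier for 11 genes, so identifiers were the key. RefSeq gave symbols for 18963 of 18991 genes, and the other 28 held 0.0029% of the counts. The key was checked against the base mean, a signal averaged over libraries that the authors deposited beside their own fold changes and p-values from DESeq2 (Spearman 0.9895 over 17521 genes). Those fold changes and p-values were not used.

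The 8 total RNA libraries were fitted with edgeR 4.0.16 (R 4.3.3): filterByExpr, TMM factors and quasi-likelihood F tests, two-sided, with Benjamini-Hochberg adjustment over 12214 genes. Alternatives were DESeq2 1.42.0 and limma 3.58.1 with voom, other size factors, filters and dispersions, a replicate block, all 16 libraries in 1 fit, and each library left out in turn. Figures used matplotlib 3.10.9. The biological coefficient of variation was 0.0377 within sgYBX1 and 0.0538 within sgLUC. The labels call the libraries replicates and the study's methods describe 4 replicate cultures, but p-values measure the spread between these libraries only. No 2 libraries of a group were within sampling noise of each other by a chi-square over genes.

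The members and the 45 gene lists were chosen with earlier results of these data known. Named genes are YBX1, genes the study text connects with RNA levels, the 12 highest and 12 lowest log2 fold changes among protein-coding genes called with a mean of at least 5 CPM and no overlap, the 8 most abundant called genes per direction over 1.25-fold, and up to 4 called members per list by adjusted p. RNASE2, HDC, S100A8, CSF3R, RPL36A, EIF4A2, EIF4H, HOXA9, MEIS1 and CD33 were named after their values were seen. Members quoted as not passing are given with their values. Some genes that meet the rule are not reported here. Lists were described by counts and medians, without a set test. Genes with near-identical copies (tryptases, ribosomal proteins, IGLL1, GGT1, ZNF28, PABPC1 and PABPC4) may share reads. Promoter sequences are from RefSeq (GRCh38.p14). They were described without a test.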

Additional observations from a re-analysis of the deposited data

Results flagged for a closer look

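Of 258 groups of 4 libraries examined over the genes named, 11 held a library whose gap to the nearest other took up nearly the whole range of its group, where chance gives about 1 in 20 groups. PAK3 stood at 15.5 CPM in sgYBX1 replicate 3, with the other sgYBX1 libraries at 14.1 to 14.3 CPM. LYZ stood at 2938.5 CPM in sgLUC replicate 2, with the other sgLUC libraries at 3177 to 3206 CPM. ELANE stood at 1.97 CPM in sgLUC replicate 2, with the other sgLUC libraries at 1.43 to 1.46 CPM. RPS6 stood at 1862 CPM in sgYBX1 replicate 3, with the other sgYBX1 libraries at 1957 to 1971 CPM. PABPC4 stood at 262 CPM in sgYBX1 replicate 2, with the other sgYBX1 libraries at 268.03 to 268.18 CPM. BCL2A1 stood at 1.76 CPM in sgLUC replicate 2, with the other sgLUC libraries at 1.48 to 1.52 CPM. CD74 stood at 138 CPM in sgYBX1 replicate 1, with the other sgYBX1 libraries at 128 to 130 CPM. YBX2 stood at 0.834 CPM in sgYBX1 replicate 3, with the other sgYBX1 libraries at 0.418 to 0.489 CPM. IGLL1 stood at 6.97 CPM in sgLUC replicate 1, with the other sgLUC libraries at 6.53 to 6.58 CPM. EIF4A2 stood at 407 CPM in sgYBX1 replicate 4, with the other sgYBX1 libraries at 434 to 438 CPM. RNASE3 stood at 21.5 CPM in sgLUC replicate 2, with the other sgLUC libraries at 24.4 to 24.8 CPM. sgLUC replicate 2, the library with the lowest total, accounted for 4 of the 11. The groups of LYZ, PAK3, RPS6, PABPC4, BCL2A1, CD74, YBX2 and IGLL1 did not overlap even with the outlying library.

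Of 204 named genes, 128 were examined here for a difference between fractions. The change in total RNA differed from that in polysomal RNA for 21 of the 128 (edgeR test of the difference, adjusted over all genes tested). Over all 12517 genes tested the share was 16.7%, so the count does not set the named genes apart. Each value is the log2 fold change in total RNA minus that in polysomal RNA, ± SE. For YBX1 it was −0.33 ± 0.10, from −0.76 in total and −0.44 in polysomal RNA (adjusted p = 0.023). For MYC it was 0.56 ± 0.15, from 0.18 in total and −0.39 in polysomal RNA (adjusted p = 0.014). For IGF2BP2 it was −0.44 ± 0.12, from 0.07 in total and 0.50 in polysomal RNA (adjusted p = 0.012). For SH2D4A it was −0.84 ± 0.17, from 1.17 in total and 2.00 in polysomal RNA (adjusted p = 0.0018). For NEFH it was −0.56 ± 0.10, from 0.53 in total and 1.08 in polysomal RNA (adjusted p = 0.0011). For IRX3 it was −0.48 ± 0.13, from 0.64 in total and 1.11 in polysomal RNA (adjusted p = 0.012). For SENP6 it was −0.36 ± 0.09, from 0.16 in total and 0.51 in polysomal RNA (adjusted p = 0.01). For EIF3F it was 0.32 ± 0.11, from −0.24 in total and −0.57 in polysomal RNA (adjusted p = 0.043). For PABPC4 it was −0.78 ± 0.21, from −0.26 in total and 0.51 in polysomal RNA (adjusted p = 0.015). For PABPC1 it was −0.62 ± 0.15, from −0.15 in total and 0.46 in polysomal RNA (adjusted p = 0.0081). For PKM it was 0.28 ± 0.10, from −0.18 in total and −0.47 in polysomal RNA (adjusted p = 0.049). For MCM10 it was −0.55 ± 0.13, from −0.21 in total and 0.34 in polysomal RNA (adjusted p = 0.0055). For TK1 it was 0.34 ± 0.11, from −0.23 in total and −0.58 in polysomal RNA (adjusted p = 0.033). For MKI67 it was −0.65 ± 0.13, from −0.27 in total and 0.37 in polysomal RNA (adjusted p = 0.0017). For ODC1 it was 0.40 ± 0.10, from −0.22 in total and −0.64 in polysomal RNA (adjusted p = 0.0069). For SOCS1 it was 0.78 ± 0.17, from 0.29 in total and −0.49 in polysomal RNA (adjusted p = 0.0029). For HOXA9 it was 1.39 ± 0.33, from 0.23 in total and −1.18 in polysomal RNA (adjusted p = 0.0067). For CD33 it was 0.51 ± 0.16, from 0.11 in total and −0.41 in polysomal RNA (adjusted p = 0.028). For CEBPA it was 0.41 ± 0.10, from 0.07 in total and −0.35 in polysomal RNA (adjusted p = 0.0057). For GAPDH it was 0.42 ± 0.11, from −0.03 in total and −0.46 in polysomal RNA (adjusted p = 0.01). For CDKN1A it was 0.43 ± 0.10, from 0.11 in total and −0.34 in polysomal RNA (adjusted p = 0.0048).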

How the results depend on the processing

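Counts of called genes depended on scaling, on the spread used and on single libraries. Genes higher numbered 1450 and lower 752 without TMM factors, and 58 were higher and 78 lower with all 16 libraries in 1 fit. With 1 library left out, 583 to 1425 were higher and 755 to 1472 lower, and the lower count was 1472 without sgLUC replicate 2. All other settings gave 913 to 1071 higher and 1091 to 1218 lower. Genes past the threshold for the difference between fractions numbered 3371 without TMM factors and 1511 to 2718 with 1 library left out. For 203 named genes besides YBX1, the 16-library fit kept 63 on their side of the threshold and ended 140 calls, library totals without TMM factors ended 14, and DESeq2 ended none of them. YBX1 kept its call under all 18 alternatives. With the tract sought within 5 bases of the start in place of at the start, it was found at 24.3% of genes called higher, 28.3% of genes called lower and 22.6% of all tested, so the gap between lower and all genes narrowed.

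Same-numbered sgYBX1 and sgLUC libraries of total RNA were not treated as pairs, and their deviations correlated at 0.15, −0.29, 0.15 and 0.32. Whether same-numbered total and polysomal libraries came from the same culture was not tested. The test of the difference between fractions took all 16 libraries as independent, and the replicate block grouped libraries by number, not by culture. A replicate block gave 942 higher and 1094 lower genes, with 1918 of the 2048 calls shared, and 1993 genes for the difference between fractions. Not every library correlated best with its own number. Under the block 5 named calls were lost, among them ELANE (adjusted p = 0.069), and CDKN1A was gained (0.031).

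Depth limits genes of few counts, such as S100A8, S100A9, HDC and YBX2, and the kinds of edits in each culture were not measured.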

Other observations

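Other gene groups held at most 4 calls in either direction. Some of their shares lay above those over all genes, 7.62% higher and 9.15% lower, and some lay below. Lower calls took 17.4% of the cholesterol genes and 17.4% of the MAPK genes, but 3.33% of the proteasome subunits. Higher calls took 12.5% of the interferon-stimulated genes, but 2.94% of the histone genes. Of 23 tested genes of cholesterol synthesis and uptake 4 were lower and none higher, and of 33 regulators of splicing of the SR and hnRNP families 4 were lower and 1 higher. Of 32 interferon-stimulated genes 4 were higher and 1 lower, and of 25 inflammatory genes 4 were higher and 3 lower. MAPK feedback and immediate early genes had 3 of 23 higher and 4 lower. Of 52 genes of the poly(A) tail and mRNA decay 2 were higher and 4 lower. Among 30 proteasome subunits 1 was lower, and among 34 replication-dependent histone genes 1 was higher. Aminoacyl-tRNA synthetases had 1 of 18 higher and 1 lower, ER chaperones 1 of 22 higher and 3 lower, stress-granule proteins 2 of 25 higher and 3 lower, and the BCL2 family 2 of 15 higher and 3 lower. Of 16 IGF2BP and m6A genes 2 were higher. No erythroid or megakaryocyte marker among 3 tested passed, with sums of 21.3 to 25.6 CPM with sgYBX1 and 23.6 to 28.2 CPM with sgLUC. Of 5 endothelial and stromal markers 1 was higher and 1 lower.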
